A study of Mus musculus with 4 samples.

Results

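Intergenic stretches of DNA that held a strong peak of open chromatin in both activin-treated libraries of LβT2 cells, and in neither vehicle-treated library, numbered 779. They were taken from 5085 intergenic regions that were strong in at least 1 library, of which they made up 15.3%, and from 21240 strong regions of every kind. A strong peak was one with a −log10 q of 5 or more in the authors' peak list of that library, strong peaks of the 4 libraries were merged where they shared at least 1 bp, and a merged region was called intergenic when its strongest peak carried that annotation. The same values therefore chose these regions and describe them, and no test of activin against vehicle was made on them.

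The libraries came from LβT2 cells, given as LbT2b in the sample titles and LβT2b in the culture protocol but as LbT2 in the cell line label, which is a single immortalised mouse line with features of the pituitary gonadotrope. Cells were plated at 350000 per well, held without serum overnight, and given vehicle or 1 nM activin A for 6 h, with 2 libraries per treatment and 50000 cells in each transposase reaction. Every group therefore carried the same line and the same serum withdrawal, and the labels did not say whether the 2 libraries of a treatment came from separate cultures, so the spread between them may be technical.

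Activin is a ligand of the TGF-β family that binds type II and type I receptor kinases, which phosphorylate SMAD2 and SMAD3; these join SMAD4 and bind DNA at short CAGAC-type elements, usually beside other transcription factors. In gonadotropes activin is best known for raising transcription of Fshb, the β subunit gene of follicle-stimulating hormone. ATAC-seq reads open chromatin through a transposase that cuts accessible DNA, and open stretches away from promoters often mark enhancers, although openness alone does not show enhancer activity and a nearest gene is not a known target.

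The labelled cell type was checked at marker promoters. Of 8 gonadotrope markers, 4 and 3 had a strong promoter peak in vehicle 1 and vehicle 2, and 6 and 5 in activin 1 and activin 2. Of the 8, Lhb, Cga and Gnrhr had a strong promoter peak in all 4 libraries. Over 18870 coding genes annotated to any called peak, 31.9% had a promoter strong in all 4 libraries. That share counted any peak over a gene's promoter, whereas the marker counts took only promoter peaks annotated to the marker. A marker without a peak here may therefore have one annotated to another gene. These counts alone therefore do not establish the cell type. A promoter peak was called at Nr5a1 in activin 1 only, at 5.15, and Pitx1 had no strong promoter peak in any library. Lhb, which encodes the β subunit of luteinising hormone, had promoter peaks of −log10 q 13.2 and 15.0 under vehicle against 15.4 and 16.1 under activin. No promoter peak was called at Fshb in any library. None of 7 markers of other pituitary cells had a strong promoter peak in any library.

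The libraries differed by treatment in ways that touch every count below. Start site enrichment reported by the authors' quality tool was 2.72 and 2.48 under vehicle against 3.12 and 3.04 under activin. The same tool's ratio of short to mononucleosomal fragments was 2.95 and 3.07 under vehicle against 3.48 and 3.49 under activin. Strong peaks of all kinds numbered 12377 and 12760 under vehicle against 19819 and 15807 under activin. High-quality autosomal reads were 172146474 and 221141898 under vehicle against 224226184 and 177952540 under activin, so depth did not follow treatment. Called peaks of any strength numbered 83344 in vehicle 1, 178358 in vehicle 2, 85112 in activin 1 and 70692 in activin 2. The share of high-quality reads in a library's own peaks was 6.93%, 11.1%, 8.73% and 7.27% in the same order. Vehicle 2 thus stood apart, and the counts of weaker vehicle peaks below rest on these lists. With 2 libraries each, treatment cannot be told apart from the differences in start site enrichment, in the fragment ratio and in strong peaks.

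Intergenic regions strong in the activin pair alone outnumbered those strong in the vehicle pair alone. Beside the 779 regions strong in both activin libraries alone, 49 regions (0.964%) were strong in both vehicle libraries alone. Pairs made of 1 vehicle and 1 activin library held 92 (1.81%), 6 (0.118%), 152 (2.99%) and 44 regions (0.865%), so the activin pair held more than any mixed pair. The pattern was also found outside intergenic DNA: among strong regions of all kinds 12% followed the same pattern, with 7.13% of promoter regions, 11.1% of exonic regions, 13.5% of regions at transcript ends and 16% of intronic regions. When each library was instead limited to its 12377 strongest peaks, 142 intergenic regions were left with activin alone and 186 with vehicle alone, which turned the order. Of the 779 regions, 134 (17.2%) overlapped one of those 142, and these made up 94.4% of the 142.

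**Figure D1:**
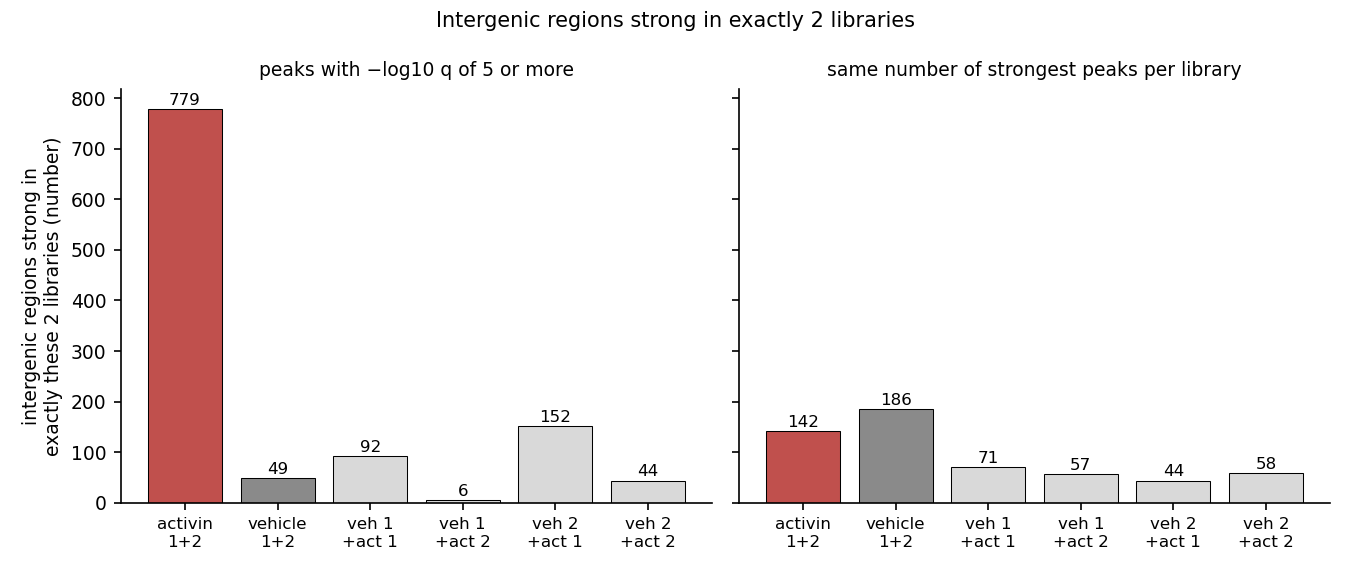
Number of intergenic regions strong in exactly 2 of the 4 libraries, with a fixed −log10 q of 5 or more on the left and with the 12377 strongest peaks of each library on the right. The activin pair held 779 regions against 49 for the vehicle pair on the left, and 142 against 186 on the right.

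A small set of the regions reached over an annotated RefSeq start site, which makes their sequence available. The promoter table of RefSeq (build GRCm38.p6) placed a promoter window, 250 bases before to 50 after a start, over 28 of the 779 regions (3.59%), against 102 of 1394 intergenic regions strong in all 4 libraries (7.32%). The latter were wider, with a median of 932 bp against 702 bp, and no allowance was made for width. Of the 28, 7 belonged to protein-coding genes and 21 to long noncoding RNAs. The 7 coding genes were Dnmbp, Zfp33b, Myo16, Smug1, Rnf180, Mical3 and Trak1. The start site itself lay inside the region for 25 of the 28, and the whole 250-base upstream stretch for 12.

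The 8 upstream stretches below are cut to the part inside the open region and end at the base before the start site. They show what DNA these regions hold at the coding genes Myo16 and Trak1, at 3 noncoding starts whose whole stretch lay inside, and at the noncoding starts in the regions annotated to Eomes, Dkk3 and Mir7b. They are written 5′ to 3′ on the gene's strand, and capitals mark matches to the SMAD element CAGAC on either strand.
Myo16: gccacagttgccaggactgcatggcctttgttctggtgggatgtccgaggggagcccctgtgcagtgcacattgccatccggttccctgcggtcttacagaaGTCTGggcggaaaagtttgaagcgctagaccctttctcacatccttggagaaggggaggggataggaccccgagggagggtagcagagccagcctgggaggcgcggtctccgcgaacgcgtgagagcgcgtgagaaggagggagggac
Trak1: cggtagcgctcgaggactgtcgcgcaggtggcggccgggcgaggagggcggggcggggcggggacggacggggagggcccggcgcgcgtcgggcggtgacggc
Gm36738: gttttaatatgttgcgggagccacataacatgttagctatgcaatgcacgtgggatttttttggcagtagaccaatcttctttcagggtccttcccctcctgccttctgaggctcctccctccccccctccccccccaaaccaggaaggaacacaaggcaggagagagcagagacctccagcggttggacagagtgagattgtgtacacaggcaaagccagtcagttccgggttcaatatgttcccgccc
Gm35815: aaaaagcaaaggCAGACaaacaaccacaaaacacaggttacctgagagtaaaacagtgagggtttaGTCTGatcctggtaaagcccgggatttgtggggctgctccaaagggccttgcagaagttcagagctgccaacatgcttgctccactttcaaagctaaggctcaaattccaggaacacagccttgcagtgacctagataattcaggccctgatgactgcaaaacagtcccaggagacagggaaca
Gm40438: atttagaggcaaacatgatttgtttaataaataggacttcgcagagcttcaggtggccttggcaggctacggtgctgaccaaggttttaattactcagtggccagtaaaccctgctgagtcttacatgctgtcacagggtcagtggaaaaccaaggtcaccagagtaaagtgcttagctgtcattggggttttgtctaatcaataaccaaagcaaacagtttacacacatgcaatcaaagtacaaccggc
Gm33460: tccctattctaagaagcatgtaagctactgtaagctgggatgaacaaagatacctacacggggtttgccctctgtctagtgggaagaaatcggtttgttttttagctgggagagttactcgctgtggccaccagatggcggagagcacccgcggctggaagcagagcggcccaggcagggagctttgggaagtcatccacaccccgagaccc
Gm33247: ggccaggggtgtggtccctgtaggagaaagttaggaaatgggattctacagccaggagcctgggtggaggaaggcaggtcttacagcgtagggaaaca
A230051N06Rik: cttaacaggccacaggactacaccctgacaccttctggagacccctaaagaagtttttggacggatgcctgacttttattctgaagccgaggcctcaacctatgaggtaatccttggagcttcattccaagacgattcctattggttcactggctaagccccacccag

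Their places in GRCm38.p6 are as follows. The Myo16 stretch is chr8:10153661-10153910 on the plus strand and the Trak1 stretch is chr9:121297399-121297501 on the plus strand. Gm36738 gave chr15:78581590-78581839 on the minus strand, Gm35815 gave chr2:178680388-178680637 on the plus strand, and Gm40438 gave chr12:71355180-71355429 on the plus strand. The Eomes region holds the Gm33460 stretch at chr9:118489780-118489991 on the minus strand, the Dkk3 region the Gm33247 stretch at chr7:112216841-112216938 on the plus strand, and the Mir7b region the A230051N06Rik stretch at chr17:56241548-56241715 on the plus strand.

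Among the 12 whole upstream stretches, 6 held CAGAC on either strand (50%), against 42.2% of 32851 mouse promoter stretches of the same length. The nuclear receptor element AAGGTCA was in 2 of 12 (16.7%, against 4.08%), the GATA element AGATAA in 2 (16.7%, against 9.99%) and the homeodomain element TAATTA in 1 (8.33%, against 4.84%). Gm40438 held both AAGGTCA and TAATTA. The other SMAD element GGCGCC (9.59% of all stretches), the AP-1 element TGANTCA (6.75%), the PITX element TAATCC (6.25%), the forkhead element TGTTTAC (3.17%) and the NEUROD element CAGATGG (4.44%) were in none of the 12. All motifs were read on both strands, none of these strings contains another, and a match is a string of letters, not a bound site. The median GC content of the 12 was 51%, against 52.4% over all stretches. The other 751 regions have no sequence here.

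Of the 7 coding start-site regions, the Zfp33b region had no called peak in vehicle 2, and the other 6 had a weaker peak in both vehicle libraries. At Myo16, which encodes an unconventional myosin of neurons, −log10 q was 3.62 and 3.89 under vehicle against 6.08 and 5.95 under activin. At Trak1, an adaptor that links mitochondria to kinesin motors, it was 2.84 and 3.03 under vehicle against 10.0 and 6.55 under activin. The Gm36738 start lay in a region annotated to Rac2 with 4.66 and 2.92 against 12.2 and 9.43. Both activin values were above both vehicle values at each of these, as the rule requires.

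Most of the regions were weakly open already with vehicle. A weaker called peak was present in both vehicle libraries for 710 regions (91.1%), in 1 for 60 (7.70%) and in neither for 9 (1.16%). The share with both was 86.6% without activin 1 and 80.5% without activin 2. Without vehicle 1 or vehicle 2, the 1 remaining vehicle library had a peak at 97.2% or 94.1% of the regions then chosen. With all 4 libraries, 63.0% kept both when vehicle peaks had to cover 50% of the region. Median −log10 q was 3.50 in vehicle 1 and 3.28 in vehicle 2, over the 728 and 752 regions with a peak there, and 8.09 in activin 1 and 6.43 in activin 2 over all 779. The intronic regions chosen by the same pattern had a weaker peak in both vehicle libraries at nearly the same share, 91.9%. A vehicle peak, where called, covered a median of 68.5% of the region in vehicle 1 and 74.2% in vehicle 2.

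Many regions sat close to the threshold on both sides. The higher of the 2 vehicle values was between 4 and 5 for 345 regions (44.3%), and the lower of the 2 activin values was between 5 and 6 for 348 (44.7%) and 10 or more for 26. The lower activin value divided by the higher vehicle value had a median of 1.70 (range 1.02 to 4.95) over the 770 regions with a vehicle peak. The same ratio was 1.15 over the 1394 intergenic regions strong in all 4 libraries, where it was free to go either way and both activin values exceeded both vehicle values in 66.1%; over regions of all kinds strong in all 4 it was 75.6%. Activin 1 exceeded activin 2 at 606 of the 779 (77.8%), so the activin libraries were not alike either.

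**Figure D2:**
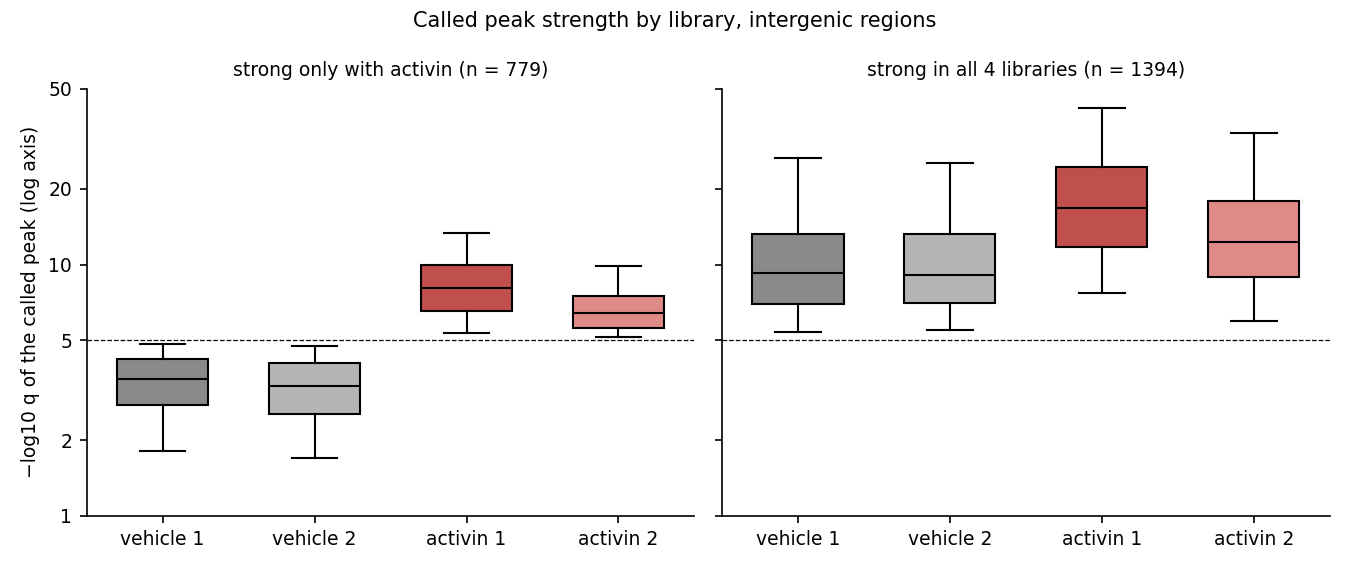
The −log10 q of the called peak in each library (log axis) for the 779 regions strong only with activin and the 1394 strong in all 4 libraries; boxes are quartiles with the median, whiskers the 5th and 95th percentiles, and the dashed line the threshold of 5. Medians of the activin-only regions were 3.50 and 3.28 under vehicle against 8.09 and 6.43 under activin, and regions strong throughout also had higher medians with activin, 16.9 and 12.3 against 9.22 and 9.07.

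**Figure D3:**
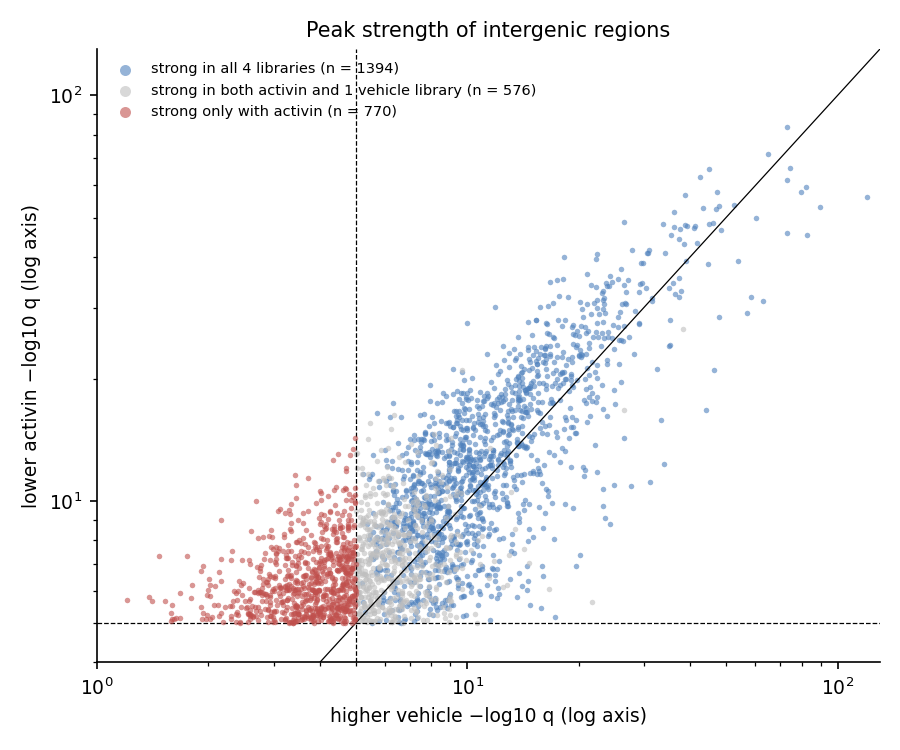
Lower activin −log10 q against higher vehicle −log10 q for intergenic regions strong in both activin libraries with a called vehicle peak (log axes); dashed lines mark the threshold of 5 and the solid line equality. The 770 activin-only regions with a vehicle peak (red) adjoin the regions strong in 1 vehicle library (grey) and run on into the regions strong in all 4 (blue).

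The threshold fell in the middle of a continuum. Just inside it, the regions annotated to 2610303G11Rik, Pja2 and 4930578C19Rik had a vehicle value that rounds to 5.00 from below, and those of Asb16, Actl6a and Gm5937 had a lower activin value of 5.00. Just outside it, regions near Kcnj16, Gm20203 and B330016D10Rik, strong in both activin libraries, had vehicle 2 values of 5.00, 5.01 and 5.01 and so were not counted.

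The strongest of the regions were still called with vehicle. Near 1810065E05Rik (chr11:58418409-58419783) the values were 4.17 and 4.99 under vehicle against 23.4 and 14.3 under activin. In a region 99.5 kb downstream of the start of Gm7976, a long intergenic RNA, they were 4.00 and 4.90 against 13.6 and 13.5. Near Bvht, a long noncoding RNA known from heart muscle development, they were 3.77 and 4.47 against 15.0 and 13.1. Both activin −log10 q values exceeded both vehicle values at each, as the rule requires of every region, and vehicle 2 was close to the threshold at 1810065E05Rik.

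Several other strong regions lay near genes with known products. Pln encodes phospholamban, a brake on the calcium pump of the sarcoplasmic reticulum, and the region 173 kb upstream of it had 4.11 and 4.34 under vehicle against 14.6 and 12.7 under activin. Azin1, an inhibitor of antizyme in polyamine control, had a region 5.69 kb upstream with 4.66 and 4.70 against 16.8 and 12.1. Rsad2 encodes viperin, an interferon-induced antiviral protein, and had a region with 4.72 and 4.50 against 11.9 and 12.9. All 3 had vehicle peaks in both libraries.

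The regions of Chp2 and Dkk3 were fainter with vehicle. Chp2, a calcineurin B homologous protein, had a region 12.9 kb upstream with 1.57 and 3.71 under vehicle against 11.9 and 11.4 under activin. That region overlapped the body of a RefSeq protein-coding gene, although its strongest peak was annotated as intergenic. Dkk3, a secreted dickkopf-family protein, had the Gm33247 region, 58.1 kb upstream, with 3.44 and 3.24 against 13.2 and 10.9. In a region 98.0 kb upstream of the pseudogene Gm8823 the values were 4.83 and 4.17 against 19.7 and 13.0. Near the small nuclear RNA Gm22359 they were 3.44 and 2.47 against 11.6 and 12.6.

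The 9 regions without any called vehicle peak were 189 to 560 bp wide, against a median of 702 bp over all 779. They were annotated to Gm24626, Gm1840, Ube4a, Gm25382, Gm28881, Gm22696, Gm5635, Gm9043 and Tpt1-ps6, and lay 1.37 to 268 kb from the annotated start. The Gm5635 region on the X chromosome had activin values of 8.84 and 8.23, and the Gm1840 region 8.65 and 7.95. Ube4a, a ubiquitin chain elongation factor, had a region 1.37 kb upstream with 9.69 and 5.07. Absence of a call means below the authors' reporting limit of −log10 q, not absence of reads.

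Among regions called with vehicle in both libraries, the lower activin value was divided by the higher vehicle value. That ratio was largest at Gm25510, St3gal4, Gm23179, Gm29536 and Edem1. St3gal4, a sialyltransferase, had a region downstream of its start with 2.10 and 2.17 under vehicle against 10.0 and 8.96 under activin. Edem1, which targets misfolded glycoproteins for degradation, had a region 70.9 kb downstream of its start with 1.93 and 1.68 against 9.84 and 6.91. Gm23179 had 1.36 and 1.41 against 5.68 and 7.21. These ratios are the extremes of the choice itself and carry no test.

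Read density, an amount rather than a significance, differed much less than −log10 q. It was taken as high-quality reads in each library's own peak per kb and per 1000000 high-quality reads, at the 303 autosomal regions with 1 peak per library, where the stretch shared by all 4 peaks made up 50% or more of the merged stretch. Medians were 1.90 and 1.74 under vehicle against 2.36 and 2.21 under activin. The log2 difference of group means had a median of 0.32 (quartiles 0.19 to 0.43), was over 1 in 2 regions and under 0 in 14. Both activin densities exceeded both vehicle densities in 230 of 303 (75.9%), against 66% of all 12554 strong regions with comparable intervals, and both were lower in 2 (0.66%, against 2.53%).

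Intergenic regions strong in all 4 libraries, which were not chosen for a difference, showed a shift of similar size. Their median log2 difference was 0.26 over 975 regions, with both activin densities above both vehicle densities in 57.5% and below in 3.08%. After each library's log2 densities were centred on its own median over those regions, the median difference of the activin-only regions was 0.015. The intronic regions strong only with activin had 0.29 over 377 regions, with both activin densities above in 70.8% and below in 0.796%. The 2 regions with a difference over 1, near the receptor genes Olfr631 and Vmn1r82, rested on at most 5 reads in any library.

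**Figure D4:**
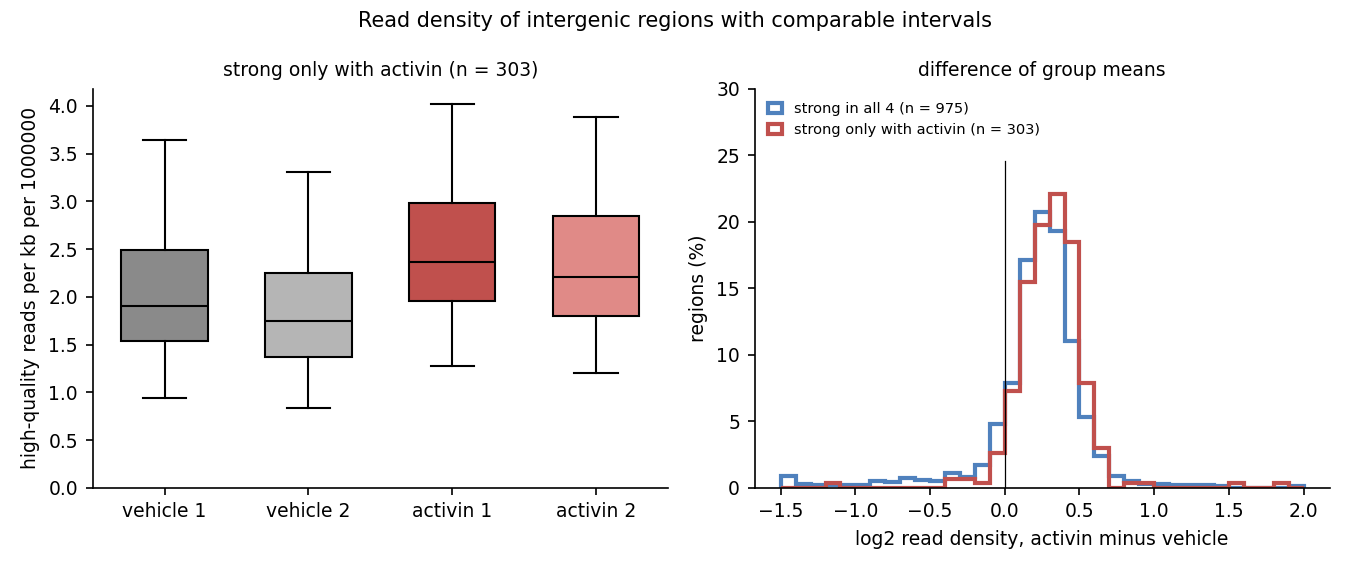
Left, read density by library (high-quality reads per kb per 1000000) at the 303 comparable regions strong only with activin, with boxes as quartiles and whiskers as the 5th and 95th percentiles. Right, the log2 difference of group means for these and for 975 intergenic regions strong in all 4 libraries, as a percent of regions, with values outside the axis placed in the end bins; the 2 distributions have medians of 0.32 and 0.26 and overlap over most of their range.

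Among the named regions with comparable intervals the log2 density difference ran from 0.14 at Gm7976 to 0.59 at 1810065E05Rik. The Gm7976 densities were 1.56 and 1.38 under vehicle against 1.99 and 1.32 under activin, so activin 2 was below both vehicle libraries there although its −log10 q was among the highest. One Gm24127 region had a difference of 0.18 and the Bvht region 0.39. The 3 largest differences among them were at 1810065E05Rik, Smad2 and Dkk3. At the 1810065E05Rik region they were 1.81 and 1.66 under vehicle against 2.51 and 2.71 under activin, a log2 difference of 0.59. At the Dkk3 region they were 2.09 and 2.22 against 3.04 and 3.07, a difference of 0.50. At the region near Smad2 they were 2.48 and 1.78 against 3.19 and 2.88, a difference of 0.53. The 2 activin values lay above the 2 vehicle values at each of these 3. Of 744 autosomal regions, 15 had at most 10 high-quality reads in each activin library and 6 had 0 in each, although a strong peak was listed there; the region near Gm10040 is one of the latter.

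Most of the regions lay over 5 kb from a start site. The median distance to the annotated start was 20.0 kb (quartiles 9.09 to 46.7, range 1.02 to 562), and 456 (58.5%) were upstream of it. Under 5 kb lay 103 regions (13.2%), from 10 to 50 kb 379 (48.7%) and at 100 kb or more 89 (11.4%). Regions strong in all 4 libraries had a median of 21.9 kb, with 57.7% upstream. The median distance to the nearest end of a RefSeq gene was 8.15 kb, against 7.81 kb, and 610 of the 779 (78.3%) lay outside every RefSeq gene body. A RefSeq protein-coding gene body held 51 (6.55%, against 10.4%) and another RefSeq gene body 118 (15.1%, against 16.9%). These overlaps too were not adjusted for the greater width of the regions strong in all 4.

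**Figure D5:**
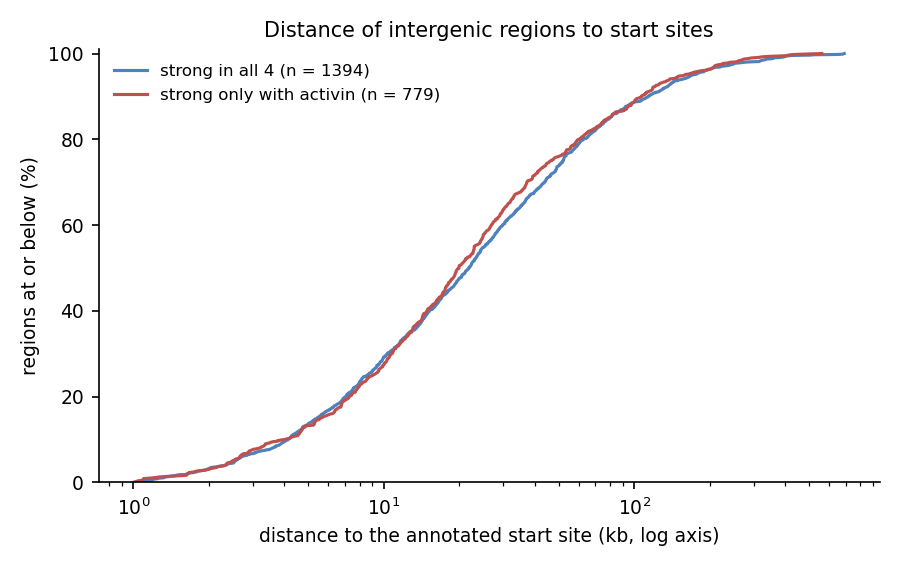
Cumulative percent of regions by distance from the peak to the annotated start site (kb, log axis) for the 779 regions strong only with activin and the 1394 strong in all 4 libraries. The curves lie close together, with medians of 20.0 and 21.9 kb.

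The closest and the farthest regions came from different kinds of genes. Asb16, a protein with ankyrin repeats and a SOCS box, had the closest region at 1.02 kb upstream, with 2.37 and 4.61 under vehicle against 7.64 and 5.00 under activin. 4930402K13Rik had one at 1.05 kb upstream. The farthest was 562 kb from Gm23476, followed by 2 regions 479 and 424 kb from the small nucleolar RNA Gm24127.

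The annotated genes were of many types, and no gene took 3 or more of the regions. Protein-coding genes were named for 381 (48.9%, against 50.4% of regions strong in all 4), processed pseudogenes for 103, long intergenic RNAs for 78, small nuclear RNAs for 45, microRNAs for 39 and small nucleolar RNAs for 34. In all 739 distinct genes were named, which is 19.1% of the 3865 genes annotated to a strong intergenic region.

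A microRNA gene stood 1.09 kb from one region. Mir7b gives rise to miR-7b, a member of the miR-7 family known from pituitary and other endocrine cells, and the region at chr17:56241548-56242240 gave −log10 q values of 4.72 and 3.99 under vehicle against 11.1 and 6.89 under activin. Its densities were 3.06 and 2.84 under vehicle against 3.53 and 3.23 under activin, a log2 difference of 0.19. Mir129-2 was annotated to a region 4.18 kb upstream (chr2:94245406-94245840) with 4.92 and 2.27 against 8.99 and 7.43. Both microRNA regions were chosen after their values were seen. The mature microRNAs from RefSeq are printed to name the products of these genes, with the seed, bases 2 to 8, in capitals; the 4 seeds all differ, and the microRNAs themselves were not measured.
mmu-miR-7b-5p: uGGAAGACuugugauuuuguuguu
mmu-miR-7b-3p: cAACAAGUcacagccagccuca
mmu-miR-129-5p: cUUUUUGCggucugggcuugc
mmu-miR-129-2-3p: aAGCCCUUaccccaaaaagcau

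The counts for each gene list below are to be read against the 19.1% of all genes with a strong intergenic region that had an activin-only one. Of 33 receptors and ligands of the activin, TGF-β and BMP families, 7 were annotated to any strong intergenic region and 2 to an activin-only one, Inhbb and Bmpr1a. Inhbb encodes the βB subunit that forms activin B and inhibin B, and its region (chr1:119397212-119398489, 24.3 kb downstream of the start) had 2.68 and 2.31 under vehicle against 5.96 and 6.98 under activin. Bmpr1a, a type I BMP receptor, had a region 6.37 kb upstream with 4.70 and 4.60 against 7.25 and 6.66. The vehicle values of Bmpr1a were near the threshold, those of Inhbb well below it.

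Of 29 SMADs, their regulators and common targets, 6 were annotated to a strong intergenic region and 1, Smad2, to an activin-only one. Smad2 is a transducer of the activin signal itself, and its region (chr18:76228279-76228825, 13.6 kb upstream) had 3.99 and 4.21 under vehicle against 13.1 and 10.3 under activin. A further region lay 3.28 kb from the start of Id3, an inhibitor of basic helix-loop-helix factors, but was annotated to Gm26001. It had no peak in vehicle 1, 2.84 in vehicle 2, and 7.46 and 8.46 with activin. Another lay between 45.3 and 87.8 kb from Lefty2 and Lefty1, secreted inhibitors of nodal, with 4.34 and 2.95 against 13.9 and 5.63; its activin libraries differed more from each other than the vehicle libraries did.

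Of 24 gonadotrope genes, 9 were annotated to a strong intergenic region and 0 to an activin-only one, beside the general share of 19.1%; with 9 genes no difference from it was tested. By distance alone, regions lay 10.8 kb from Egr1, an immediate early factor that acts at Lhb, 37.0 kb from the orphan nuclear receptor gene Nr0b1, 64.1 kb from the LIM-homeodomain gene Lhx3, 69.5 kb from Gata2 and 95.3 kb from the homeobox gene Six6. Such distances were not compared with those of other genes and do not link a region to a gene. The Egr1-near region had 1.64 and 3.30 under vehicle against 7.22 and 5.02 under activin, the Lhx3-near region 4.03 and 3.32 against 8.10 and 9.81, and the Gata2-near region 2.61 and 3.78 against 9.18 and 6.26. The Nr0b1-near region had the narrowest gap of the 5, 4.26 and 2.95 against 5.17 and 5.36, and the Six6-near region had 2.97 and 3.13 against 13.3 and 5.84.

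Among markers of other pituitary cells, Neurod1 was annotated to an activin-only region. It encodes a basic helix-loop-helix factor of neuroendocrine differentiation. Its region, 28.7 kb upstream, had 3.97 and 2.90 under vehicle against 6.28 and 7.52 under activin.

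Immediate early and AP-1 genes gave Fos and Ier2 among 9. Ier2 had a region 6.00 kb downstream of its start with 3.33 and 3.18 under vehicle against 11.0 and 9.86 under activin. The Fos region, 13.1 kb downstream, had no peak in vehicle 1, 1.60 in vehicle 2, and 5.10 and 5.47 with activin. A region 15.9 kb from Klf6 had 1.38 in vehicle 1, no peak in vehicle 2, and 7.64 and 5.81 with activin. Of 3 GnRH receptor signalling genes with a strong intergenic region, 1 was annotated to an activin-only one, Adcyap1, which encodes PACAP; that region lay 131 kb upstream with 2.17 and 2.94 against 9.18 and 7.16.

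Over all lists 8 of the 38 genes with a strong intergenic region had an activin-only one, against the 19.1% of all such genes. With the start of a list gene within 100 kb counted instead of the annotated gene, 18 regions were near one. The matching share over other intergenic regions was not computed, so this number has no background to be read against. Eomes is outside the lists and was named after its values were seen; it encodes a T-box factor known to respond to nodal and activin in the early embryo. Its region (chr9:118489139-118489991, 10.9 kb downstream) had 1.52 and 2.79 under vehicle against 6.11 and 6.73 under activin.

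Promoters of the annotated coding genes were distributed over peak states much as those of all coding genes. Of 363 such genes, 142 (39.1%) had no called promoter peak, 121 (33.3%) a promoter strong in all 4 libraries, 61 (16.8%) one called but never strong, and 12 (3.31%) one strong only with activin. The last compares with 2.88% of 18870 coding genes annotated to any called peak and 3.48% of genes of intergenic regions strong in all 4. Among the 12 were Slc27a3, Whrn, Camk2n1, H6pd, Zfp418, Tle3, Dhx40, Prima1, Pik3c3, 4930402K13Rik and Wbp5. At some of the 12, 4930402K13Rik among them, the promoter values were those of the intergenic region itself. The 3.31% thus includes genes whose state was fixed by the rule that chose the regions.

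Tle3, a Groucho-family corepressor, had promoter values of 4.98 and 3.36 under vehicle against 12.8 and 10.1 under activin. Camk2n1, an inhibitor of CaM kinase II, had 4.16 and 4.20 against 8.49 and 6.59. Zfp418, a zinc finger protein, had 1.66 and 2.49 against 10.4 and 13.3.

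Most of the regions stood alone along the genome. With gaps of at most 50 kb, 106 of the 779 (13.6%) fell in 49 clusters, of which 42 held 2 regions, 6 held 3 and 1 held 4. Intergenic regions strong in all 4 libraries, which are more numerous, fell in clusters at 24.5%. The clustered number moved with the choice of peaks: it was 41 at a −log10 q of 7 or more, 2 with the same number of strongest peaks per library, and 597 without activin 2, where 2149 regions were chosen. The median gap between neighbours was 1589 kb. The nearest region strong in all 4 libraries lay at a median of 43.3 kb, against 44.0 kb from one such region to the next, and 413 of the 779 had one within 50 kb.

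The cluster of 4 spanned 83.8 kb at chr11:22671871-22755660, among the noncoding genes Gm12053, Gm12055 and Gm12057. Lower activin values of its regions were 5.22, 5.32, 7.14 and 5.16, and higher vehicle values 2.14, 3.16, 4.51 and 3.40. The third, annotated to Gm12055 like the second, was the strongest of the 4 in both vehicle libraries and in activin 2. In activin 1 the second was slightly higher, at 7.66 against 7.64.

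A cluster of 3 at chr1:86440425-86532768 ran from 1700019O17Rik to Ptma, which encodes prothymosin alpha. Its Ptma region, 5.38 kb downstream of the start, had 4.81 and 3.94 under vehicle against 15.0 and 7.71 under activin, and the 1700019O17Rik region was the widest of all, at 3314 bp. Another at chr2:126950846-126987461 lay between Sppl2a, an intramembrane protease, and Ap4e1, a subunit of the AP-4 adaptor complex. Its Ap4e1 regions had 4.03 and 3.36 against 9.31 and 9.47, and 2.88 and 2.26 against 5.18 and 8.05.

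A cluster of 3 at chr18:35867675-35939925 was annotated to Gm29417 and Gm23882, with lower activin values of 6.79, 6.52 and 5.72. The cluster on X, chrX:9060924-9103899, held the Gm5635, Gm6826 and 4930402K13Rik regions, with no vehicle peak at the first and a peak in 1 vehicle library at each of the others, at 3.33 and 2.14.

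Every chromosome but Y held some of the regions. Chromosome 1 had the most, 58, and chromosome 8 the fewest of the autosomes, 25, with 35 on X. The share of a chromosome's strong intergenic regions that were strong only with activin ran from 11.1% on chromosome 16 to 22.8% on chromosome 10.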

How the data were processed

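ATAC-seq was analysed in 4 libraries of LβT2 cells, 2 per treatment, grouped by sample title. Bowtie2, MACS2 and HOMER, with builds GRCm38 and mm10, are named per the submitters' processing notes; versions and settings are not given in the sources used here. The authors deposited a broad peak list for each library, called on that library alone, in which each peak has a score, a fold enrichment (a ratio to the local background), a −log10 p-value and a −log10 q-value. The authors also deposited HOMER annotations, with the signed distance to a start site, and an ataqv 1.3.1 quality report with the high-quality autosomal reads in each peak, so X has no density.

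From these, strong peaks (−log10 q of 5 or more) were merged with Python 3.11.15 and pandas 2.3.3, and the 779 regions were chosen. Log2 densities used reads + 1. The merging and clustering were tested on simulated data. Positions count from 1; 99.99% of 9139 promoter peaks of vehicle 1 lay on the chromosome RefSeq gives in GRCm38.p6, and 72.8% of the 739 annotated genes matched a RefSeq symbol. Regions named were the 10 with the highest lower activin value, those without vehicle peak, and the 5 largest ratios of lower activin to higher vehicle value. The 5 fullest clusters, list genes, the 3 nearest and 3 farthest, and those at the threshold were also named. Other choices are said to be such. The regions and lists were chosen with earlier results of these data known. Shares of regions carry no interval, since regions are not replicates of a treatment. No test was made, since the rule used all 4 libraries. A gene that the naming rule selects is not reported here, though counts include it.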

Additional observations from a re-analysis of the deposited data

How the results depend on the processing

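The number of activin-only regions, 779 as reported, was 1118 with a −log10 q of 3 or more, 554 with 7 or more and 352 with 10 or more, 778 with a 50% overlap required and 774 with every peak intergenic. It fell to 142 with the same number of strongest peaks per library, where vehicle-only regions numbered 186. That limit gave 95.1% with both vehicle peaks, 2 regions in clusters and a −log10 q difference of 5.85 (3.87 as reported); 2 list genes and a density difference of 0.39 under it were computed after the data were seen. With 7 or more these were 97.1%, 41 and 5.05, and with 3 or more 13 list genes were annotated. Leaving out each library in turn gave 977 to 2149 regions, the most without activin 2. A peak in both vehicle libraries was present for 86.6% without activin 1 and 80.5% without activin 2. The 1 remaining vehicle library had a peak for 97.2% without vehicle 1 and 94.1% without vehicle 2. Across the same runs 157 to 597 regions fell in clusters, and −log10 q differences were 2.93 to 4.26. Log2 density differences were 0.22 to 0.39 (lowest without vehicle 2), and median distances 20.0 to 21.5 kb. Both vehicle peaks were present for 63.0% when they had to cover 50% of the region and 77.3% at a −log10 q of 2 or more. The median distance was 8.15 kb to a RefSeq gene end. Clusters held 51 regions with gaps of 20 kb and 135 with 100 kb. The log2 density difference was 0.015 after centring on regions strong in all libraries and 0.50 without division by length. Near list gene starts, 18 regions lay within 100 kb, with no background share for that window. The causes were not tested. No paired analysis was possible because the results come from no test. Motif shares at the centre of the regions, and their alternatives, were not run, since no genome was used here.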
